A study of Arabidopsis thaliana with 24 samples.

Results

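The Arabidopsis thaliana line examined here carries a full-length DXO1 protein whose catalytic site is altered, expressed from the 35S promoter in the dxo1-2 mutant, and it was set against the wild type Col-0. Its 4 libraries were those titled as the complementation line with the mutant protein, and with the 4 Col-0 libraries they make 8 of the 24 libraries of the series. The substituted protein has E394A and D396A, that is, alanine in place of a glutamate and of an aspartate. The other groups used beside them, also with 4 libraries each, were a full-length active line (35S::DXO1 without changes), a truncated substituted line and a truncated active line (both without the N-terminal part, ΔN194), and dxo1-2 itself. All transgenic lines share the dxo1-2 background, and Col-0 has neither the mutation nor a transgene. The plants were 21 days old and grown on soil in long days, and the RNA was described as from whole plants. Transcript 3' ends were counted by 3' RNA-seq, with cDNA primed by oligo(dT). There was 1 line per construct, so a change that belongs to the line and one that belongs to the construct cannot be told apart. The 35S promoter acts in most tissues and need not follow the pattern of the native gene. No source used here says whether the libraries of a group came from separate plants, so p-values measure the spread between these libraries, which may be partly technical.

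DXO1 belongs to the DXO/Rai1 family, enzymes that act on abnormal RNA 5' ends and can remove noncanonical caps such as NAD. The plant protein also has an N-terminal extension that animal and yeast relatives lack, and it is known to promote methylation of the guanosine cap through the methyltransferase RNMT1. The comparison asks what still differs from the wild type when the full-length protein is present and its catalytic residues are not.

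The stretch of the DXO1 coding sequence that holds both substituted residues is shown because it defines the line. It lies at chr4:9823937-9823969 on the plus strand of TAIR10.1, in exon 8 of the 13 coding exons of AT4G17620, and covers codons 390 to 400. The capitals mark codons 394 (GAA, glutamate) and 396 (GAC, aspartate) of the reference, counted from the start codon.
DXO1 codons 390 to 400: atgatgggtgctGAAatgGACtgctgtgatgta
Only the reference sequence is shown. The changed codons of the transgene are not read here.

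The level of DXO1 is only a partial check of the labels, since it cannot tell the substituted line from Col-0. The substituted line had 18.8, 21.6, 15.9 and 17.4 CPM (counts brought to a common library size, with TMM factors), against 11.8, 15.9, 19.1 and 15.5 CPM in Col-0. The ranges overlapped, and the log2 fold change of 0.25 was not called (edgeR quasi-likelihood test, adjusted p 0.724). The full-length active line averaged 12.1 ± 1.24 CPM and dxo1-2 averaged 3.36 ± 0.645 CPM (SD, n = 4). DXO1 counts per library were 19 to 38 in the substituted line and 21 to 28 in Col-0. They were 27 to 40 in the full-length active line and only 5 to 8 in dxo1-2. Reads of the transgene and of the disrupted native gene cannot be told apart in these counts.

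Total counts per library ran from 1273473 to 2279619 in the substituted line and from 1449681 to 2285751 in Col-0. Replicate 3 of the substituted line stood apart from its group, with an SD of 0.67 log2 units around the group mean over genes, against 0.40 to 0.53 in the other 3 libraries. The median SD of a gene was 0.46 log2 units in the substituted line and 0.32 in Col-0. Marker sums were those of green tissue. Nuclear photosynthesis genes summed to 225921 to 304994 CPM in the substituted line and 264771 to 308165 CPM in Col-0. Root markers summed to only 0.635 to 2.56 CPM in the substituted line and 2.73 to 6.05 CPM in Col-0, with 6 of 9 at 0 in all 8 libraries. Those ranges did not overlap (exact two-sided permutation p 0.0286, the smallest possible, adjusted p 0.2 over 7 marker lists). Root markers this low give no sign of root tissue, although the RNA was described as from whole plants. Seed markers, with none of 14 at 0 throughout, summed to 35.5 to 171 CPM in the substituted line and 154 to 240 CPM in Col-0 (exact permutation p 0.0857, adjusted 0.3). Flower markers (4 of 12 at 0), secondary wall markers (1 of 9 at 0), phloem markers (0 of 11) and senescence markers (0 of 6) had exact permutation p from 0.143 to 0.343. The part of these marker differences in the results below was not tested.

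Of 13592 genes tested, 728 (5.36%) were called different between the substituted line and Col-0 at an adjusted p under 0.05 (edgeR quasi-likelihood test, Benjamini-Hochberg adjustment over all tested genes). Among them 432 (3.18%) were higher and 296 (2.18%) lower in the substituted line, and 433 changed by more than 2-fold. The groups did not overlap in 638 of the 728, and in 10.1% of all tested genes. The median log2 fold change over all tested genes was 0.04. The full-length active line differed from the same Col-0 libraries in 140 genes (1.03%, with 0.552% higher and 0.478% lower) and dxo1-2 in 22.6% of them. Leaving out replicate 2 or replicate 1 of Col-0 took the 728 to 419 and 438, and 944 were called without replicate 3 of the substituted line. In bulk RNA, fewer cells of a type and less RNA per cell cannot be told apart, here and below.

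The genes furthest above Col-0 included a small heat shock protein relative, a receptor of abscisic acid and a cell wall glycoprotein. AT4G21870, annotated as an HSP20-like chaperone, had 96.4, 72.4, 36.3 and 63.2 CPM in the substituted line, against 0.946, 0.756, 1.36 and 1.19 CPM in Col-0. Every substituted library was well above every Col-0 library, (log2 fold change 5.89, SE 0.50, edgeR adjusted p 1.7e-08). The same gene averaged 5.69 ± 2.57 CPM in the full-length active line, so the level in the substituted line was also above that one (log2 fold change 3.56, SE 0.37, edgeR adjusted p 4.83e-07). AT1G72416, annotated with a DnaJ domain as in co-chaperones, had 244, 217, 93.1 and 218 CPM in the substituted line, against 24.6, 31.8, 19.8 and 26.9 CPM in Col-0. Its lowest substituted library, replicate 3, was still above all Col-0 libraries (log2 fold change 2.90, SE 0.31, edgeR adjusted p 9.46e-07). J11 (AT4G36040), a small DnaJ-domain protein of the same annotation, had 381, 441, 292 and 373 CPM in the substituted line, against 106, 80.9, 120 and 103 CPM in Col-0 (log2 fold change 1.86, SE 0.20, edgeR adjusted p 9.21e-07).

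Some of the genes named by fold or by smallest p encode regulators of transcription. PAR2 (AT3G58850), a helix-loop-helix cofactor that is quickly induced in shade and restrains the shade response, had 41.8, 34.9, 20.9 and 55.0 CPM in the substituted line, against 6.15, 4.54, 7.49 and 2.39 CPM in Col-0 (log2 fold change 2.84, SE 0.38, edgeR adjusted p 2.05e-05). RAP2.9 (AT4G06746), a factor of the AP2/ERF family, had 41.0, 37.5, 31.7 and 33.9 CPM in the substituted line, against 5.68, 3.02, 5.45 and 7.76 CPM in Col-0 (log2 fold change 2.67, SE 0.46, edgeR adjusted p 5.11e-04). WRKY54 (AT2G40750), which acts with WRKY70 in leaf senescence and salicylate responses, had 73.4, 95.3, 70.6 and 72.4 CPM in the substituted line, against 24.6, 18.9, 19.8 and 14.3 CPM in Col-0 (log2 fold change 1.99, SE 0.18, edgeR adjusted p 5.26e-08). Neither group overlapped the other for any of these genes. WRKY54 was also called higher in the full-length active line against Col-0 (log2 fold change 1.46, edgeR adjusted p 3.29e-05). PAR2 and RAP2.9 were not called in that comparison (edgeR adjusted p 0.904 and 0.307).

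Other high genes had similar levels in all lines of the dxo1-2 background. The pseudogene AT5G35935 had 26.4, 15.2, 10.0 and 9.16 CPM in the substituted line, against 1.42, 0, 0 and 0 CPM in Col-0. With 89 counts in the substituted line and 3 in Col-0, the ratio was 31.3, with an exact 95% interval of 10.4 to 155 that covers counting error only. It averaged 9.35 ± 1.67 CPM in the full-length active line, 9.27 ± 2.47 CPM in the truncated substituted line, 7.47 ± 1.50 CPM in the truncated active line and 11.4 ± 3.71 CPM in dxo1-2. AT1G64795, with no described product, had 23.9, 19.7, 16.7 and 27.5 CPM in the substituted line, against 0.473, 0, 0 and 4.18 CPM in Col-0 (log2 fold change 4.09, SE 0.61, edgeR adjusted p 9.32e-05), and 14.1 to 19.1 CPM as averages of the remaining 4 genotypes. Both genes were at or near 0 in most Col-0 libraries, and neither differed between the substituted and the full-length active line beyond the threshold (log2 fold changes 0.68 and 0.56, edgeR adjusted p 0.264 and 0.441).

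Lower genes included genes for water channels, a galactinol synthase, a raffinose synthase and a pair of related ERF factors. AT4G28140 (ERF54) had 15.4, 19.1, 7.93 and 13.7 CPM in the substituted line, against 112, 174, 138 and 159 CPM in Col-0 (log2 fold change -3.41, SE 0.43, edgeR adjusted p 7.08e-06). ERF53 (AT2G20880), its close relative and known as a drought-responsive factor, had 4.27, 1.91, 3.34 and 1.83 CPM in the substituted line, against 19.4, 36.3, 29.3 and 26.3 CPM in Col-0 (log2 fold change -3.24, SE 0.38, edgeR adjusted p 3.14e-06). Both fell in all 4 substituted libraries. AT5G52050, a MATE-type efflux carrier, had 1.71, 1.27, 0 and 0.916 CPM in the substituted line, against 10.4, 12.1, 11.6 and 18.5 CPM in Col-0 (log2 fold change -3.91, SE 0.50, edgeR adjusted p 9.15e-06), on 5 counts in all in the substituted line.

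Galactinol synthase and raffinose synthase catalyse successive steps that build raffinose, a sugar that accumulates in drought and cold. GolS2 (AT1G56600), galactinol synthase 2, had 13.7, 5.08, 1.67 and 3.66 CPM in the substituted line, against 40.2, 31.0, 40.2 and 24.5 CPM in Col-0 (log2 fold change -2.62, SE 0.53, edgeR adjusted p 0.00293). SIP1 (AT5G40390), annotated as a raffinose synthase, had 26.4, 13.3, 9.19 and 10.1 CPM in the substituted line, against 84.7, 89.2, 80.4 and 68.1 CPM in Col-0 (log2 fold change -2.49, SE 0.25, edgeR adjusted p 3.74e-07). Transcripts of both genes were lower in all 4 substituted libraries, whereas DIN10 (AT5G20250), another member of the raffinose synthase family that is induced by darkness, was higher, as given below. Among the aquaporins, RD28 (AT2G37180) had 18.8, 14.6, 8.77 and 21.1 CPM in the substituted line, against 64.3, 119, 82.4 and 100 CPM in Col-0 (log2 fold change -2.59, SE 0.27, edgeR adjusted p 6.11e-07). PIP2B (AT2G37170), the neighbouring gene, averaged 91.3 ± 13.9 CPM in the substituted line and 246 ± 46.2 CPM in Col-0 (SD, n = 4), which gave a log2 fold change of -1.43 with an SE of 0.18 (edgeR adjusted p 8.77e-06). These tandem genes are nearly identical, so how their reads were divided is uncertain. SIP1 and RD28 were also called lower in the full-length active line against Col-0. Their log2 fold changes there were -0.94 and -0.98 (edgeR adjusted p 0.0232 and 0.0299). GolS2 and PIP2B were not called in that comparison (edgeR adjusted p 0.376 and 0.309).

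The remaining genes with the lowest folds or smallest p had varied annotations. MAF5 (AT5G65080), a MADS-box repressor of flowering related to FLC, had 0.853, 0.635, 3.76 and 3.66 CPM in the substituted line, against 11.8, 18.9, 17.0 and 21.5 CPM in Col-0 (log2 fold change -2.85, SE 0.48, edgeR adjusted p 4.02e-04). XTH31 (AT3G44990), a xyloglucan-modifying enzyme, had 0.853, 2.54, 2.92 and 4.58 CPM in the substituted line, against 14.2, 22.7, 17.7 and 22.1 CPM in Col-0 (log2 fold change -2.78, SE 0.32, edgeR adjusted p 1.88e-06). CAD9 (AT4G39330), of the cinnamyl alcohol dehydrogenase family, had 75.9, 97.8, 69.3 and 72.4 CPM in the substituted line, against 226, 221, 179 and 209 CPM in Col-0 (log2 fold change -1.40, SE 0.15, edgeR adjusted p 1.09e-06). CAD9 averages in dxo1-2 and the remaining transgenic lines ran from 220 ± 17.1 to 244 ± 36.3 CPM. GH9C2 (AT1G64390, an endoglucanase relative), AT1G73390 (a protein with a BRO1-like domain), AT3G16670 (of the extensin-related Ole e 1 family) and AT3G48460 (a GDSL-type lipase relative) were lower by log2 fold changes of -1.82, -2.30, -1.72 and -2.55. In the full-length active line against Col-0, XTH31, GH9C2 and AT3G16670 were also called lower. Their log2 fold changes there were -1.16, -0.94 and -1.05 (edgeR adjusted p 0.00983, 0.00679 and 0.00169). MAF5, CAD9, AT1G73390 and AT3G48460 were not called in that comparison (edgeR adjusted p 0.127 to 0.494). XTH31 averaged 136 CPM in dxo1-2, 327 CPM in the truncated substituted line and 257 CPM in the truncated active line.

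**Figure D1:**
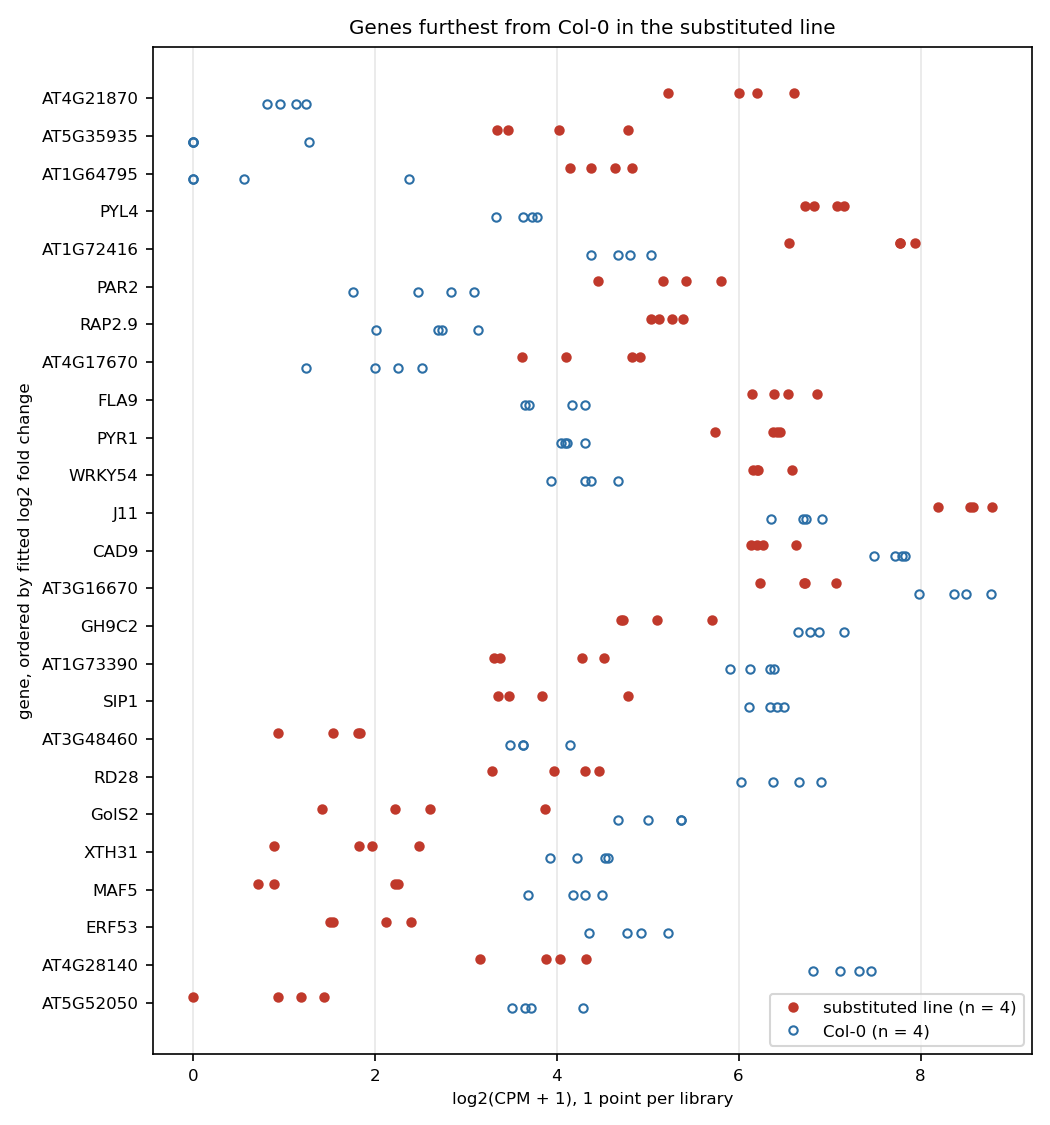
Level of each named gene on a log2(CPM + 1) axis, with 1 point per library; filled red points are the 4 libraries of the substituted line and open blue points the 4 Col-0 libraries, and genes run by fitted log2 fold change. The points of the 2 genotypes do not overlap for any gene, a property the choice of genes required, from AT4G21870 (5.89) at the top to AT5G52050 (-3.91) at the bottom.

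Abscisic acid is bound by receptors of the PYR/PYL/RCAR family, and the bound receptor blocks phosphatases of the PP2C clade A that otherwise hold the response off. Of 14 receptor genes 8 were tested, and 4 were higher and 1 lower (62.5% called, against 5.36% of all tested genes), with a median log2 fold change of 1.49. The median depended on the filter, at 0.55 over 13 receptors with no filter on low counts and 0.77 over 7 with at least 10 counts in every library. PYL4 (AT2G38310) had 142, 105, 134 and 113 CPM in the substituted line, against 12.8, 9.07, 12.3 and 11.3 CPM in Col-0 (log2 fold change 3.42, SE 0.27, edgeR adjusted p 8.92e-09). PYR1 (AT4G17870) had 81.9, 84.5, 52.6 and 87.0 CPM in the substituted line, against 16.1, 18.9, 16.4 and 15.5 CPM in Col-0 (log2 fold change 2.19, SE 0.23, edgeR adjusted p 8.02e-07). PYL5 (AT5G05440) had 97.3, 95.9, 49.7 and 84.3 CPM in the substituted line, against 15.6, 16.6, 19.1 and 14.9 CPM in Col-0 (log2 fold change 2.29, SE 0.37, edgeR adjusted p 2.68e-04). Replicate 3 was the lowest substituted library for PYR1 and PYL5 and the second highest for PYL4. PYL6 (AT2G40330) had 22.2, 12.7, 9.19 and 7.33 CPM in the substituted line, against 0.473, 0.756, 0.681 and 1.79 CPM in Col-0 (log2 fold change 3.71, SE 0.80, edgeR adjusted p 0.00515).

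Other receptors did not follow. PYL7 (AT4G01026) averaged 33.1 ± 4.81 CPM in the substituted line and 58.8 ± 4.02 CPM in Col-0 without overlap (SD, n = 4), with a log2 fold change of -0.83 with an SE of 0.20 (edgeR adjusted p 0.0107). PYL8 (listed as RCAR3), PYL1 and PYL9 (listed as RCAR1) had log2 fold changes of 0.79, 0.57 and 0.01 and were not called (edgeR adjusted p 0.0681, 0.418 and 0.996). PYL4, PYL5 and PYL6 are close relatives within the family. Of the 8 receptors tested, 7 had a positive log2 fold change and 1, PYL7, a negative one.

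The co-receptor phosphatases lay on the other side. All 7 tested of 9 had a negative log2 fold change, with a median of -0.93, and 2 were called lower (28.6%, against 5.36% of all tested genes). PP2CA (AT3G11410) had 81.1, 71.8, 39.2 and 97.1 CPM in the substituted line, against 166, 175, 153 and 191 CPM in Col-0 (log2 fold change -1.26, SE 0.28, edgeR adjusted p 0.00689). ABI1 (AT4G26080) had 57.2, 54.6, 28.8 and 49.5 CPM in the substituted line, against 70.5, 74.1, 102 and 91.4 CPM in Col-0 (log2 fold change -0.84, SE 0.22, edgeR adjusted p 0.0211). The ABI1 call was lost without replicate 3 of the substituted line, replicate 3 or replicate 4 of Col-0, or after removal of the gene-length trend (highest edgeR adjusted p 0.0756). HAI1 and HAI2, named after their values were seen, at 0.418 to 5.50 CPM and 0 to 2.54 CPM in the substituted line, against 6.62 to 9.07 CPM and 2.73 to 5.97 CPM in Col-0, had log2 fold changes of -1.99 and -1.78 and were not called (edgeR adjusted p 0.308 and 0.167).

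Genes that respond to drought, cold or abscisic acid were also looked up. Of 14 tested of 15 none was called in edgeR or in DESeq2, 1 had an unadjusted p under 0.05, and the median log2 fold change was -0.39. KIN2 averaged 4886 ± 1284 CPM in the substituted line and 4569 ± 444 CPM in Col-0, and COR15A averaged 2854 ± 911 CPM in the substituted line and 3393 ± 388 CPM in Col-0 (SD, n = 4). Outside that list, RD20 (AT2G33380), a caleosin induced by drought and abscisic acid, was chosen after its values were seen. It had 63.1, 78.1, 46.8 and 43.1 CPM in the substituted line, against 240 to 277 CPM in Col-0 (log2 fold change -2.11, SE 0.44, edgeR adjusted p 0.00368).

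**Figure D2:**
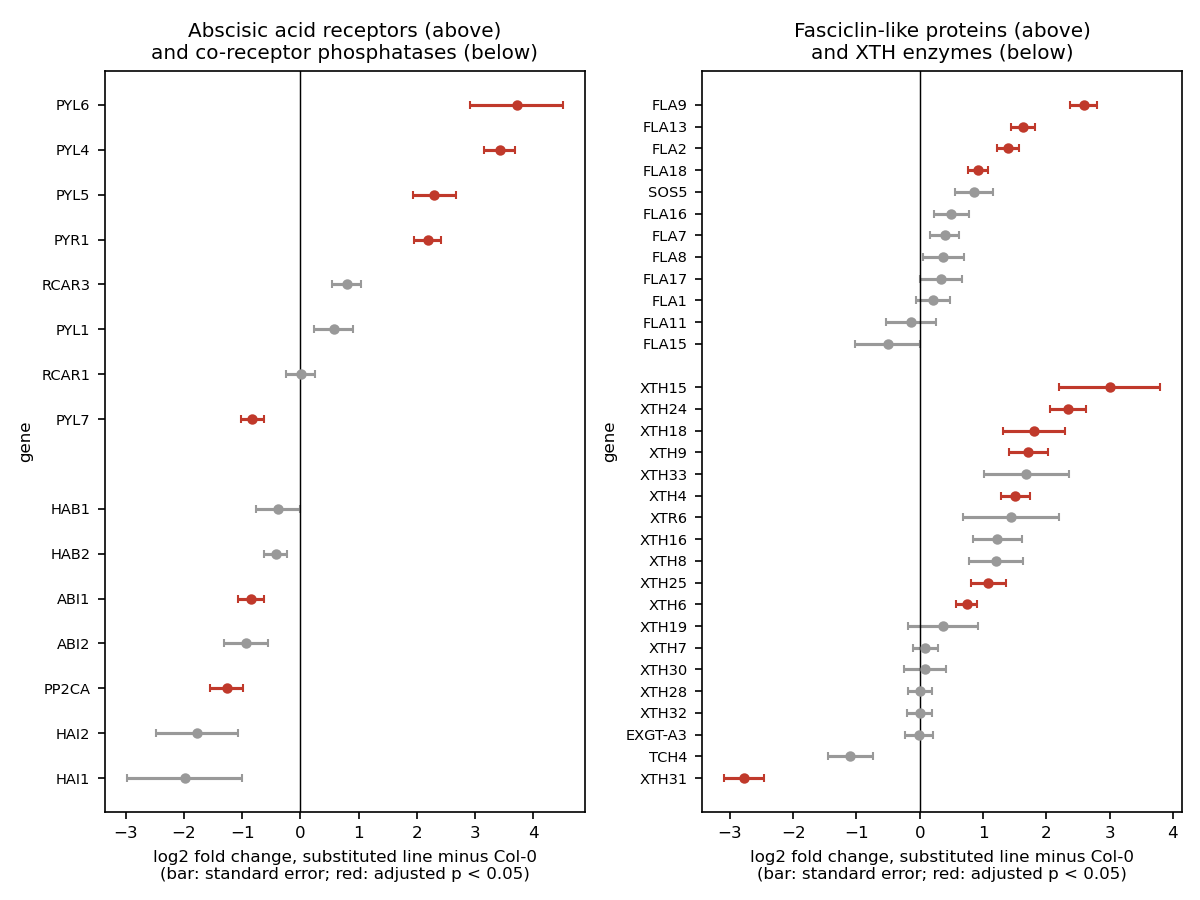
Fitted log2 fold change of the substituted line minus Col-0 with its standard error for every tested member of 4 gene lists, with members called at an adjusted p under 0.05 in red and the others in grey. Among the receptors PYL6, PYL4, PYL5 and PYR1 lie to the right and PYL7 to the left, and all 7 phosphatases lie left of 0; FLA9 leads the fasciclin-like proteins and XTH31 stands alone at the low end of the XTH enzymes.

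Promoter windows were searched for short motifs that are known to be bound in these responses. A window covered 250 bases before to 50 after the annotated gene start, read from TAIR10.1 and its annotation, and both strands were searched. The abscisic acid response element core ACGTG was present in 22.7% of the windows of 414 higher genes and 37.2% of those of 296 lower genes, against 28.3% of all 13505 windows. The G-box CACGTG, which contains that core, was present in 5.07% of higher and 15.2% of lower windows, against 9.35% of all. The drought and cold element core CCGAC was present in 15.5% of higher and 23.6% of lower windows, against 16.8% of all, and the evening element AAAATATCT in 4.11% of higher and 7.09% of lower windows, against 3.29% of all. The W-box core TTGAC, at 48.8% and 50.7% against 50.7%, the GCC box GCCGCC, at 2.66% and 1.69% against 2.61%, and the telo box AAACCCTA, at 4.11% and 2.36% against 5.38%, are given in the same order. These shares are descriptions, since a match is only a match of letters.

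The windows of 3 lower genes and of PYL4 are shown to let the letters be compared, each 5' to 3' on the strand of the gene. Matches to ACGTG or its reverse complement are in capitals. These examples were not taken by a rule and are not typical of their groups. The core was present in 110 of 296 lower windows and in 94 of 414 higher windows. PUB19 lies at chr1:22198016-22198315 on the plus strand, AT5G53710 at chr5:21805763-21806062 on the minus strand, RD20 at chr2:14146506-14146805 on the minus strand and PYL4 at chr2:16049668-16049967 on the plus strand.
PUB19 promoter: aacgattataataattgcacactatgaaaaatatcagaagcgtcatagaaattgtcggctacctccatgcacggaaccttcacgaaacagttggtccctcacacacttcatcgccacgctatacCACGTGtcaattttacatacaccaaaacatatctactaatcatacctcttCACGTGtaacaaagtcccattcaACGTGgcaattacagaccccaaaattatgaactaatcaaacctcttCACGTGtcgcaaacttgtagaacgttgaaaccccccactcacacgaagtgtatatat
AT5G53710 promoter: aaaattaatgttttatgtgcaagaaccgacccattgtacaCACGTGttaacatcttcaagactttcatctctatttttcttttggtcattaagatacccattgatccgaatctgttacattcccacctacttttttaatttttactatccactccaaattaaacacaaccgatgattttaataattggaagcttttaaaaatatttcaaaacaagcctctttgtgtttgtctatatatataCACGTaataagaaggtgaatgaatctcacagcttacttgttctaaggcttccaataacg
RD20 promoter: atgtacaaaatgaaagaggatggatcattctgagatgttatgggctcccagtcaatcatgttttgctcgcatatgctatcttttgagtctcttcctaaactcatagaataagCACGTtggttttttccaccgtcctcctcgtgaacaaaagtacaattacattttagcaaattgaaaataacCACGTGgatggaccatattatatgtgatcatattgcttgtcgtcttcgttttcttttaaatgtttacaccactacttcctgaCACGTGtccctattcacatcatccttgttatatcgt
PYL4 promoter: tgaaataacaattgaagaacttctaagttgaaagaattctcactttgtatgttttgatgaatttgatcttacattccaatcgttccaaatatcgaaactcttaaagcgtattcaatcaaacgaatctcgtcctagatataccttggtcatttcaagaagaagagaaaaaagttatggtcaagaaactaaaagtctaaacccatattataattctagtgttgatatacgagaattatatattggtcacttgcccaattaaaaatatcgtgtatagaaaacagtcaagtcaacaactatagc
The core matched 7 times in the PUB19 window, counting both strands so that each of its 3 G-boxes counts in both directions, 3 times in that of AT5G53710, 5 times in that of RD20 and 0 times in that of PYL4. PUB19 is a U-box ubiquitin ligase known to act in drought and abscisic acid responses. It had 0.853, 0, 0 and 0.916 CPM in the substituted line, against 8.04, 6.81, 6.13 and 5.97 CPM in Col-0. With 2 counts in the substituted line and 45 in Col-0, the ratio was 0.0469 with an exact 95% interval of 0.00551 to 0.18 (edgeR adjusted p 0.0148), and the call was lost without replicate 2 or replicate 3 of the substituted line (highest edgeR adjusted p 0.0551). AT5G53710, with no described product, had 0.853, 0.635, 0.418 and 0.916 CPM in the substituted line, against 6.15, 6.05, 5.45 and 4.18 CPM in Col-0 (log2 fold change -2.96, SE 0.63, edgeR adjusted p 0.00473).

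Several families of cell wall genes had called members. Fasciclin-like arabinogalactan proteins are cell surface glycoproteins, and of 21 genes 12 were tested, 4 were higher and 0 lower (33.3% called, against 5.36% of all tested genes), with a median log2 fold change of 0.45. FLA9 (AT1G03870) had 92.1, 69.9, 83.1 and 115 CPM in the substituted line, against 17.0, 18.9, 11.6 and 11.9 CPM in Col-0 (log2 fold change 2.59, SE 0.22, edgeR adjusted p 1.7e-08). FLA13 (AT5G44130) had 251, 225, 242 and 260 CPM in the substituted line, against 85.1, 94.5, 51.8 and 83.0 CPM in Col-0 (log2 fold change 1.63, SE 0.19, edgeR adjusted p 1.88e-06). FLA2 (AT4G12730) had 133, 142, 138 and 143 CPM in the substituted line, against 54.9, 68.1, 38.2 and 50.2 CPM in Col-0, and the difference was called (edgeR adjusted p 5.24e-06). FLA18 (AT3G11700) was higher by a log2 fold change of 0.92 (edgeR adjusted p 7.18e-04). None of these 4 overlapped between the genotypes, and all 4 kept their call in each setting tried.

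Xyloglucan endotransglucosylases cut and rejoin xyloglucan chains when walls loosen or form. Of 33 XTH genes 19 were tested, 7 were higher and 1, XTH31, was lower (42.1% called, against 5.36% of all tested genes), with a median log2 fold change of 1.08. XTH24 (AT4G30270) had 200, 217, 160 and 181 CPM in the substituted line, against 36.4, 37.1, 32.7 and 43.0 CPM in Col-0 (log2 fold change 2.34, SE 0.29, edgeR adjusted p 5.24e-06). XTH4 (AT2G06850) had 1151, 866, 637 and 1189 CPM in the substituted line, against 346, 333, 304 and 362 CPM in Col-0 (log2 fold change 1.51, SE 0.22, edgeR adjusted p 8.35e-05). XTH9 (AT4G03210) had 93.0, 92.1, 68.1 and 88.9 CPM in the substituted line, against 30.7, 24.2, 18.4 and 29.3 CPM in Col-0 (log2 fold change 1.72, SE 0.31, edgeR adjusted p 8.32e-04). XTH6 rose by a log2 fold change of 0.74, and XTH15, XTH18 and XTH25, at 3.00, 1.80 and 1.08, each lost their call without some single library (highest edgeR adjusted p 0.122, 0.0967 and 0.0822). The count of 7 was 4 without replicate 1 of Col-0, and in a fit of only the 8 libraries compared 13 XTH genes were tested, 5 were higher and 2 lower, and the median was 0.10.

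Of 12 tested expansins, proteins that loosen walls without cutting them, 0 were higher and 2 lower (16.7% called, against 5.36% of all tested genes). Leaving out 1 library gave between 1 and 4 lower expansins, with 4 lower without replicate 4 of the substituted line, and 1 higher without its replicate 3. EXPA16 (AT3G55500) had 36.7, 50.8, 35.5 and 43.1 CPM in the substituted line, against 63.9, 68.1, 65.4 and 80.0 CPM in Col-0 (log2 fold change -0.74, SE 0.17, edgeR adjusted p 0.0105). EXPA4 was the other lower member, at a log2 fold change of -0.89, and its call was lost in 7 of 8 fits that left out 1 library (highest edgeR adjusted p 0.129). The SAUR family of short auxin-responsive genes had 38 of 80 members tested, 7 higher and 1 lower (21.1% called, against 5.36% of all tested genes), with a median log2 fold change of 0.75. AT4G38840 had 123, 117, 63.0 and 106 CPM in the substituted line, against 38.8, 40.8, 34.1 and 42.4 CPM in Col-0 (log2 fold change 1.38, SE 0.24, edgeR adjusted p 6.7e-04). SAUR15 (AT4G38850) and AT4G38825, on either side of it, were also higher, by log2 fold changes of 1.98 and 3.32. The lower member, AT4G22620, had 7.68, 3.81, 4.59 and 6.41 CPM in the substituted line, against 12.8, 20.4, 26.6 and 26.3 CPM in Col-0 (log2 fold change -1.96, SE 0.39, edgeR adjusted p 0.00254). The remaining 4 higher members, AT2G35290, AT4G34770, AT1G29430 and SAUR63, had log2 fold changes of 2.74, 2.08, 1.62 and 1.18. Among them AT2G35290 and SAUR63 lost their calls in 4 and 6 of 8 fits that left out 1 library (highest edgeR adjusted p 0.0719 and 0.152). SAUR genes of the cluster around SAUR15 resemble each other, so reads may have been divided between copies. Of 23 Aux/IAA genes, repressors in auxin signalling, only IAA16 was called (4.35%, against 5.36% of all tested genes). Its log2 fold change was 0.63, and it was not called in 8 of the 17 other settings (highest edgeR adjusted p 0.0991).

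Jasmonate is made from linolenic acid by lipoxygenase, AOS, AOC and OPR3 in turn, is joined to isoleucine by JAR1 and is sensed through JAZ repressors. Of 33 jasmonate genes 29 were tested, 8 were lower and 0 higher (27.6% called, against 5.36% of all tested genes), with a median log2 fold change of -0.31. The count of 8 was 4 without replicate 2 of Col-0 and 5 without replicate 3 of Col-0 or replicate 2 of the substituted line, and the median was -0.07 with no filter on low counts and -0.71 with at least 10 counts in every library. OPR3 (AT2G06050) had 133, 114, 115 and 71.5 CPM in the substituted line, against 280, 342, 339 and 256 CPM in Col-0 (log2 fold change -1.49, SE 0.22, edgeR adjusted p 6.76e-05). AOC1 (AT3G25760) had 173, 240, 137 and 139 CPM in the substituted line, against 454, 633, 591 and 473 CPM in Col-0 (log2 fold change -1.64, SE 0.29, edgeR adjusted p 6e-04). JAR1 (AT2G46370) had 42.7, 45.7, 54.7 and 34.8 CPM in the substituted line, against 97.0, 108, 115 and 80.0 CPM in Col-0 (log2 fold change -1.15, SE 0.20, edgeR adjusted p 5.42e-04). AOC2 (AT3G25770) fell by 1.13 on the log2 scale (edgeR adjusted p 0.00535), and AOC1 and AOC2 are near-identical tandem genes whose reads may be shared. AOS, CLH1, CORI3 and JAZ3, at log2 fold changes of -0.79, -0.80, -0.82 and -0.79, lost their calls without some single library, JAZ3 in 7 of 8 such fits (highest edgeR adjusted p 0.0805, 0.0656, 0.0966 and 0.219).

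Against the full-length active line none of the 29 tested jasmonate genes was called lower and 5 were called higher. Of all tested genes 2.49% were lower and 3.79% higher against that line. OPR3 averaged 108 ± 26.1 CPM in the substituted line, 123 ± 34.1 CPM in the full-length active line and 304 ± 42.7 CPM in Col-0 (SD, n = 4). Between the substituted and the full-length active line the OPR3 log2 fold change was -0.18 (edgeR adjusted p 0.666), and between the full-length active line and Col-0 it was -1.30 (edgeR adjusted p 8.99e-04). AOS and AOC2 gave log2 fold changes of -1.23 and -1.11 between the full-length active line and Col-0 (edgeR adjusted p 9.73e-04 and 0.0169). For PYL4, PYR1, PYL5 and PYL6 the log2 fold changes against the full-length active line were 2.74, 1.46, 2.57 and 2.86, all called (edgeR adjusted p 5.75e-08, 9.08e-05, 7.04e-05 and 0.00887). The full-length active line against Col-0 gave 0.68, 0.72, -0.28 and 0.85 for the same 4 genes, none of them called (edgeR adjusted p 0.267, 0.144, 0.782 and 0.714). The comparisons of each full-length line with Col-0 use the same Col-0 libraries, and both comparisons of the substituted line use the same substituted libraries.

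**Figure D3:**
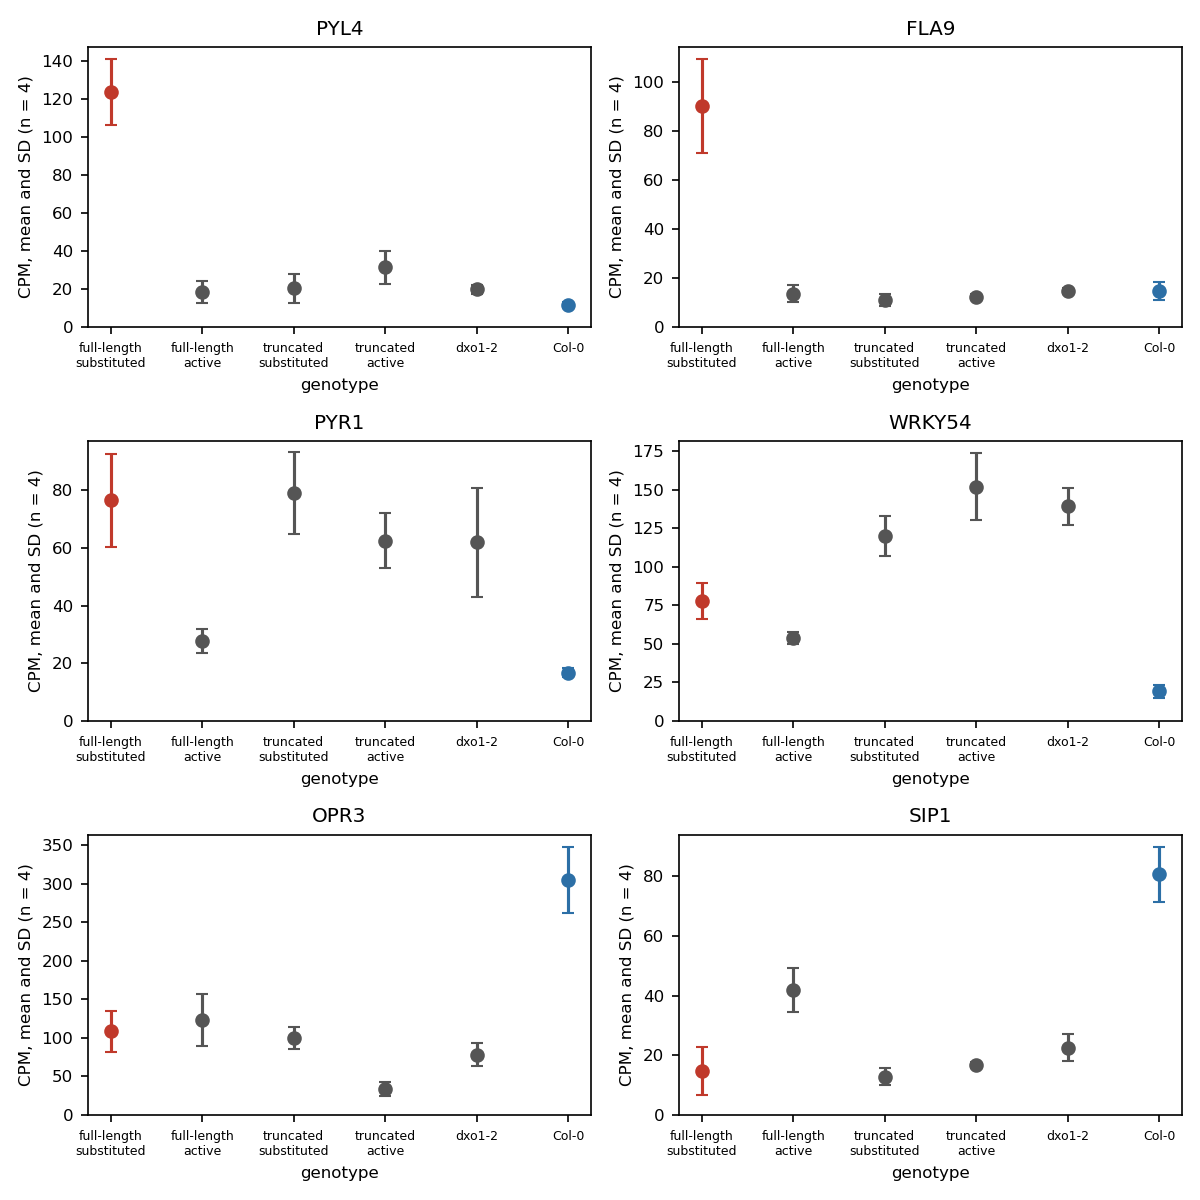
CPM of 6 genes in the 6 genotypes, each point the mean of 4 libraries and each bar the SD, on axes that start at 0. PYL4 and FLA9 are highest in the substituted line (123 and 90.1 CPM), PYR1 and WRKY54 are also high in the truncated lines and dxo1-2, and OPR3 and SIP1 are highest in Col-0 (304 and 80.6 CPM).

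Of 13 tested sugar starvation genes 3 were higher and 0 lower (23.1% called, against 5.36% of all tested genes). Without replicate 3 of the substituted line, the library that stood apart, 4 were higher and 3 lower. ASN1 (AT3G47340), asparagine synthetase and a classic dark-induced gene, had 31.6, 27.9, 47.6 and 28.4 CPM in the substituted line, against 5.68, 9.07, 10.9 and 8.96 CPM in Col-0 (log2 fold change 2.00, SE 0.40, edgeR adjusted p 0.00254). DIN10 (AT5G20250) had 116, 141, 303 and 107 CPM in the substituted line, against 28.4, 22.7, 47.0 and 26.3 CPM in Col-0 (log2 fold change 2.44, SE 0.33, edgeR adjusted p 1.95e-05), with replicate 3 the highest. STP1 (AT1G11260), a hexose transporter, had 894, 1017, 802 and 941 CPM in the substituted line, against 444, 385, 477 and 443 CPM in Col-0 (log2 fold change 1.06, SE 0.18, edgeR adjusted p 4.76e-04). The other 10 of 13 tested were not called, and the median of the list was -0.17.

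Of tested members, 5.26% were called in the salicylate list, 12.5% in the rapid wound and stress list and 10% in the iron list. Over all tested genes the share was 5.36%. In the salicylate list, WRKY18 was the only 1 of 19 called, at a log2 fold change of 0.86, and it lost its call in 5 of 8 fits that left out 1 library (highest edgeR adjusted p 0.128). PR5 averaged 89.9 ± 14.2 CPM in the substituted line and 103 ± 19.1 CPM in Col-0 (SD, n = 4). Among 24 rapid wound and stress regulators, ERF4 (AT3G15210), a repressor of the ERF family, had 128, 116, 55.1 and 116 CPM in the substituted line, against 41.1, 46.9, 45.7 and 46.0 CPM in Col-0 (log2 fold change 1.20, SE 0.28, edgeR adjusted p 0.0108). AT4G28140 and ERF13 were the 2 lower members, ERF13 at a log2 fold change of -3.03 that was not called without replicate 4 of Col-0 (edgeR adjusted p 0.0722). FER1 (AT5G01600), the iron storage protein ferritin, had 93.0, 128, 77.2 and 74.2 CPM in the substituted line, against 191, 200, 140 and 178 CPM in Col-0 (log2 fold change -0.93, SE 0.20, edgeR adjusted p 0.00424), and was the only 1 of 10 tested iron genes called.

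Genes tied to the known activities of the DXO family and to ribosomes gave few calls. None of 16 genes for capping, cap binding, decapping and 5' exonucleases was called in edgeR, with a median log2 fold change of 0.00 and a range from -0.71 to 0.40, and none of 13 tested nucleolar and ribosome assembly factors was called (median 0.27). DESeq2 called 0 in either list, and 1 and 2 genes had an unadjusted p under 0.05. DCP5, a decapping factor, averaged 57.5 ± 12.2 CPM in the substituted line and 59.6 ± 7.41 CPM in Col-0. Of 262 tested ribosomal protein genes, collected by name as cytosolic, 2 were higher and 2 lower (1.53%, against 5.36% of all tested genes), with a median of -0.03. The names do not fully separate organelle types, and the called genes may be among these. In dxo1-2 the median of the same list against the same Col-0 libraries was 1.03. Of the 4 calls, AT5G55140, an L30-family protein, averaged a log2 fold change of 1.02 (edgeR adjusted p 0.00726), and RPL34, AT3G04840 and RPL15 (AT3G25920) lost their calls in some fits (highest edgeR adjusted p 0.188, 0.150 and 0.108). Among 40 nuclear photosynthesis genes LHCB2.3 alone was called (2.5%, against 5.36% of all tested genes), at a log2 fold change of -0.43. LHCB2.3 was not called in 7 of 17 other settings (highest edgeR adjusted p 0.129). Of the 40 genes 32 were below 0, and the list median was -0.14. In the clock list TOC1 alone of 17 was called, at -0.63, in the glucosinolate list MYB34 alone of 13, at -1.26, and in the phloem list AAP2 alone of 9, at -0.62. These single calls were 5.88%, 7.69% and 11.1% of the tested members, against 5.36% of all tested genes. TOC1 was not called in 5 of 17 other settings, 2 of them fits that left out 1 library. Leaving out 1 library ended the call of MYB34 in 5 of 8 fits and of AAP2 in 1. Over all settings the highest edgeR adjusted p was 0.121 for TOC1, 0.102 for MYB34 and 0.0517 for AAP2. None of 10 seed genes was called in edgeR and 1 was called lower in DESeq2, while 6 had an unadjusted p under 0.05 and all 10 were below 0, with a median of -1.18. Without replicate 2 of the substituted line 3 were called lower and the median was -1.94, and 3 were also called lower with the length trend removed and 5 with the leading axis of the residuals as a covariate. Of the flower, secondary wall and senescence lists 1, 1 and 3 genes were tested, with 0 called in edgeR or DESeq2 and 0 at an unadjusted p under 0.05, and no root gene was tested.

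**Figure D4:**
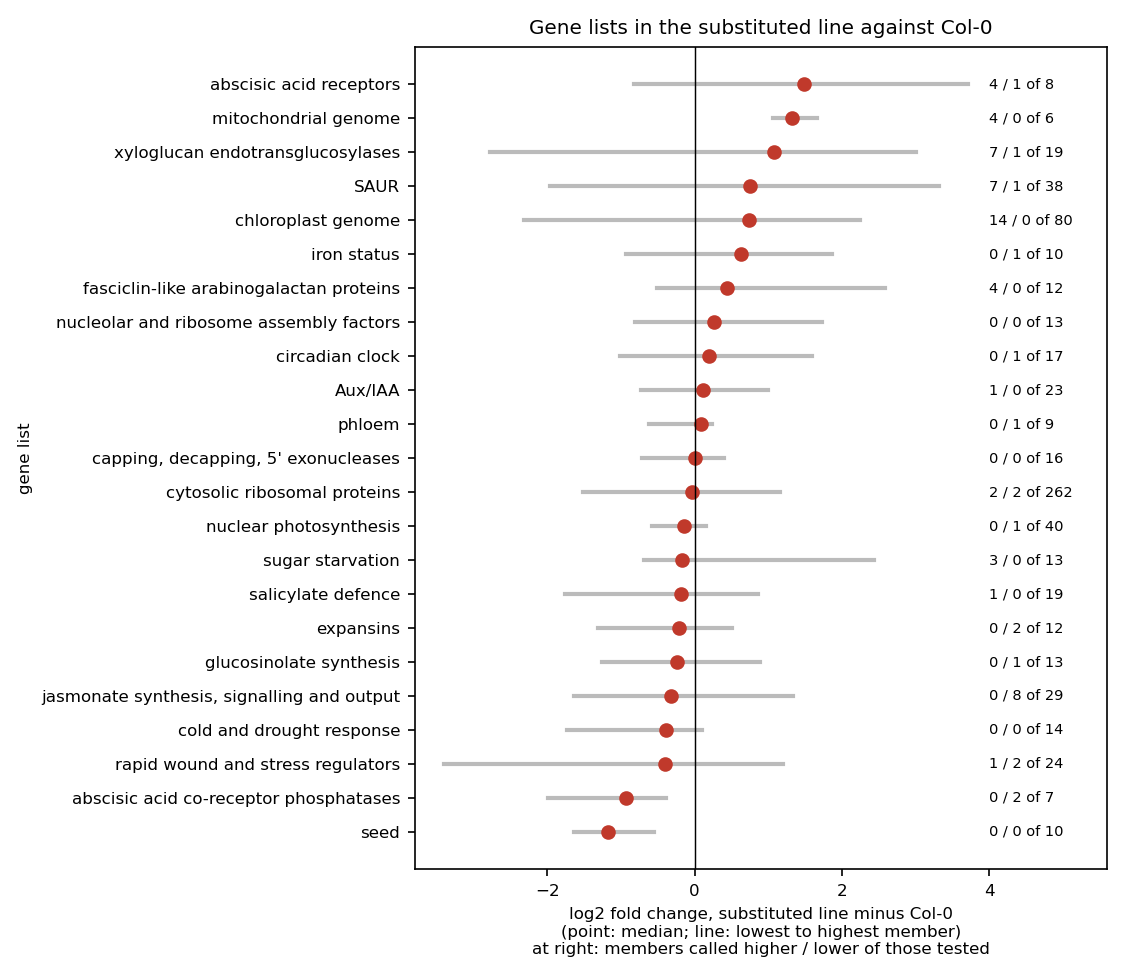
Median log2 fold change of the substituted line minus Col-0 in each gene list with at least 6 tested members (points), the range of its members (grey lines) and, at right, how many members were called higher and lower of those tested. Abscisic acid receptors (1.49), XTH enzymes (1.08), SAUR genes (0.75) and both organelle genomes lie to the right, phosphatases (-0.93) and seed genes (-1.18) to the left, and ribosomal proteins at -0.03.

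Transcripts of the chloroplast genome took a larger share of counts in the substituted line. They made up 5.92%, 6.99%, 6.84% and 5.98% of counts in the substituted line, against 5.23%, 4.46%, 4.34% and 4.41% in Col-0, with no overlap, and 6.00 ± 0.33% in the full-length active line. Organelle transcripts mostly lack long poly(A) tails, so priming with oligo(dT) samples them incompletely. Of 133 chloroplast loci 80 were tested, 14 were higher and 0 lower (17.5% called, against 5.36% of all tested genes), 66 of the 80 were above 0, and the median log2 fold change was 0.74. ATCG00070 had 317, 600, 351 and 539 CPM in the substituted line, against 134, 64.3, 57.2 and 122 CPM in Col-0 (log2 fold change 2.25, SE 0.40, edgeR adjusted p 7.39e-04). ATCG00490 had 189, 222, 356 and 206 CPM in the substituted line, against 132, 81.7, 67.5 and 77.6 CPM in Col-0 (log2 fold change 1.44, SE 0.31, edgeR adjusted p 0.00487). Against the full-length active line none of the 80 was called higher and 2 were called lower. Of all tested genes 3.79% were higher and 2.49% lower against that line. The median of the list in that line against Col-0 was 0.56. The count of 14 was 8 without replicate 2 or replicate 3 of Col-0 and 9 without replicate 2 of the substituted line, and over all settings it ran from 8 to 34. Of 152 mitochondrial loci 6 were tested and 4 were higher, with a median of 1.33, but 0 were called without replicate 2 of the substituted line and 1 without any single Col-0 library. Replicate 3 of that line had the highest mitochondrial share, 0.27%, against 0.0642% to 0.105% in the other 3. ATMG00020 had 2447 CPM in that library and 638 to 1015 CPM in the other 3, and its log2 fold change was 1.06 with that library and 0.45 without it.

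The full-length substituted and active lines were also compared directly, again as 1 line each. Between these lines 854 of 13592 genes were called (6.28%), 515 higher (3.79%) and 339 lower (2.49%) in the substituted line, and 2585 were called without replicate 3 of the substituted line. Some genes named above were called here too, but they were chosen for extreme values in the same substituted libraries. Their calls here are therefore not independent of that choice. FLA9 averaged 90.1 ± 19.2 CPM in the substituted line and 13.6 ± 3.51 CPM in the active line (log2 fold change 2.71, SE 0.21, edgeR adjusted p 8.05e-09), and CAD9 averaged 78.9 ± 12.9 CPM in the substituted line and 244 ± 36.3 CPM in the active line (log2 fold change -1.63, SE 0.15, edgeR adjusted p 1.2e-07). WRKY54, at 77.9 ± 11.6 CPM in the substituted line and 54.0 ± 3.94 CPM in the active line, differed less (log2 fold change 0.53, SE 0.16, edgeR adjusted p 0.0473).

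Some genes furthest apart between the full-length lines were not called against Col-0. SESA3 (AT4G27160), a seed storage albumin, averaged 19.7 ± 16.3 CPM in the substituted line, 1.06 ± 0.654 CPM in the active line and 37.5 ± 9.60 CPM in Col-0. It is itself a member of the seed marker list described above. PDF1.2b (AT2G26020), a defensin with close paralogs, had 2.56, 45.7, 20.5 and 6.41 CPM in the substituted line, 1.49 ± 0.733 CPM in the active line and 8.47 ± 9.29 CPM in Col-0. Their log2 fold changes against the active line were 4.04 and 3.71 (edgeR adjusted p 0.00188 and 0.00335), and against Col-0 they were -0.95 and 1.27 (edgeR adjusted p 0.419 and 0.342). SADHU3-2 (AT3G42658), a retroelement-derived pseudogene with similar copies, averaged 2.21 ± 1.84 CPM in the substituted line and 51.9 ± 6.17 CPM in the active line (log2 fold change -4.67, SE 0.43, edgeR adjusted p 8.29e-08). It had 12 counts in the substituted line and 1 in Col-0, a ratio of 12.7 with an exact interval of 1.87 to 541, not called (edgeR adjusted p 0.079). It was called in 4 of the 15 other settings, over which the adjusted p ran between 0.00971 and 0.342, among them the fit without replicate 3 of the substituted line (edgeR adjusted p 0.00971). PUB19 and AT5G53710 were lower than in the active line as well as than in Col-0 (edgeR adjusted p 0.004 and 1.72e-04 against the active line). PUB19 averaged 8.79 ± 6.52 CPM in the active line, and AT5G53710 averaged 0.705 ± 0.227 CPM in the substituted line and 9.90 ± 4.61 CPM in the active line (log2 fold change -3.82). AT1G49450, a WD40-repeat protein with 3 counts in the substituted line and 26 in Col-0, was at a ratio of 0.122 to Col-0 (exact interval 0.0236 to 0.397), and its call there was lost in 8 of 8 fits that left out 1 library (highest edgeR adjusted p 0.141).

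The genes called against Col-0 were also looked up in libraries that comparison did not use. In dxo1-2 against the full-length active line, which differ in the presence of the active protein, 4153 of 13592 genes were called (30.6%), 2513 higher (18.5%) and 1640 lower (12.1%). Of the 432 genes higher in the substituted line, 124 (28.7%) were higher there too and 74 (17.1%) were lower. Of the 296 lower genes, 64 (21.6%) were lower there too and 77 (26.0%) were higher. Each of the 4 shares was above that of all tested genes, and no test was made of the excess. The median Col-0 level was 19.5 CPM for the higher genes and 53.5 CPM for the lower genes, against 13.5 CPM for all tested genes. Depth limits calls of genes of low level, and the part of level in these shares and those between the truncated lines was not tested. The shared higher genes were 4.93% of the 2513, and the shared lower genes 3.90% of the 1640.

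Examples of genes that moved the same way in both comparisons were taken by smallest p. PYR1 averaged 61.8 ± 18.8 CPM in dxo1-2 and 27.6 ± 4.13 CPM in the full-length active line (log2 fold change 1.15, SE 0.21, edgeR adjusted p 1.46e-04). WRKY54 averaged 139 ± 11.9 CPM in dxo1-2 and 54.0 ± 3.94 CPM in the full-length active line (log2 fold change 1.36, SE 0.16, edgeR adjusted p 2.63e-07). ACL (AT2G23600), annotated as an acetone-cyanohydrin lyase, and BG_PPAP (AT5G42100), a beta-1,3-glucanase at plasmodesmata, were higher by log2 fold changes of 0.64 and 1.25 in dxo1-2 against the active line, and by 1.45 and 2.01 in the substituted line against Col-0. SIP1, PIP2B, OPR3 and AT3G05640 (a PP2C-family phosphatase) were lower by -0.88, -0.52, -0.64 and -1.79 in dxo1-2 against the active line, and by -2.49, -1.43, -1.49 and -1.34 in the substituted line against Col-0. PYL4 and FLA9 had log2 fold changes of 0.10 and 0.11 in dxo1-2 against the active line and were not called (edgeR adjusted p 0.789 and 0.736).

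The pair of truncated lines gave fewer calls. The truncated substituted line differed from the truncated active line in 287 genes (2.11%), 197 higher (1.45%) and 90 lower (0.662%). Of the 432 genes higher in the full-length substituted line against Col-0, 22 (5.09%) were higher there and 8 (1.85%) lower, and of the 296 lower genes 2 (0.676%) were lower and 22 (7.43%) higher. The 2 genes lower in both were MAF5 and FRO7. MAF5 averaged 0.432 ± 0.414 CPM in the truncated substituted line and 3.45 ± 0.894 CPM in the truncated active line (log2 fold change -2.84, SE 0.66, edgeR adjusted p 0.0206). FRO7 (AT5G49740), a ferric reductase of the chloroplast, averaged 39.1 ± 6.60 CPM in the truncated substituted line and 71.9 ± 11.4 CPM in the truncated active line (log2 fold change -0.88, SE 0.24, edgeR adjusted p 0.0462). Against Col-0 FRO7 had overlapping values and a log2 fold change of -1.15 whose call was lost without replicate 1 or 2 of the substituted line or replicate 1 or 3 of Col-0 (highest edgeR adjusted p 0.143). Among the shared higher genes were XTH4, the bZIP factor BZO2H3 (AT5G28770), PCAP1 (AT4G20260, a membrane-associated cation-binding protein) and the glycine-rich protein AT5G28630, with log2 fold changes of 0.87, 0.98, 0.58 and 1.22 between the truncated lines and of 1.51, 1.72, 0.98 and 1.93 between the substituted line and Col-0. The count of 287 fell to 8 in a fit of the truncated lines alone, and leaving out replicate 4 of the active one of them gave 846. DXO1 averaged 5.14 ± 1.71 CPM in the truncated substituted line and 4.45 ± 1.77 CPM in the truncated active line, with values that overlapped those of dxo1-2 (3.36 ± 0.645 CPM), so these counts do not show how much the truncated transgenes were expressed.

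**Figure D5:**
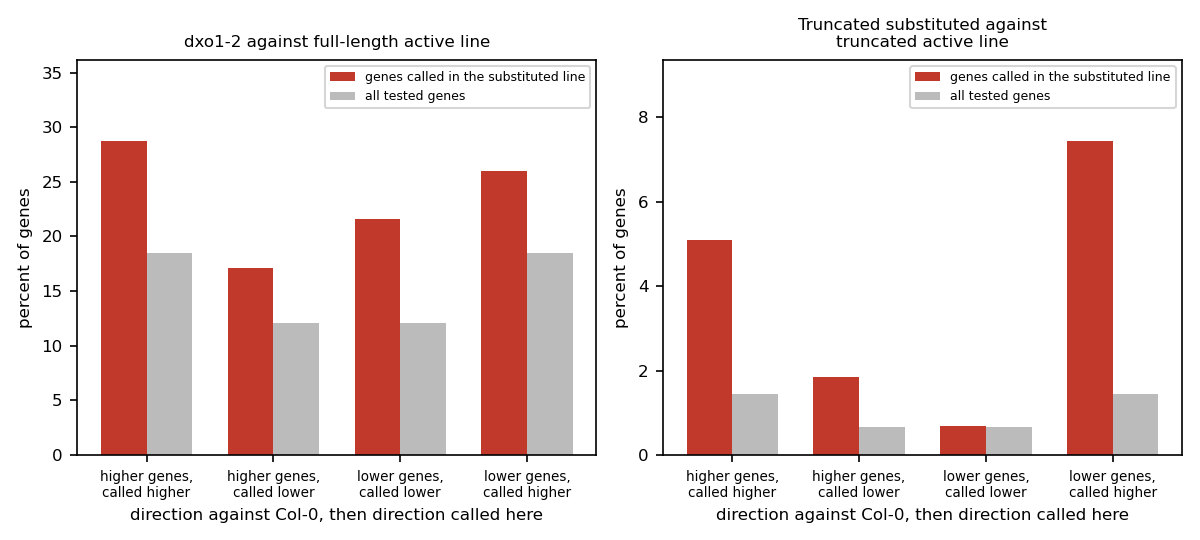
Share of the genes called in the substituted line against Col-0 (red) and of all tested genes (grey) that were called in 2 comparisons made from other libraries, by direction; bars start at 0. At left 28.7% of the higher genes were also higher in dxo1-2 against the full-length active line, against 18.5% of all tested genes, and at right the share of lower genes that were also lower between the truncated lines, 0.676%, was near that of all tested genes.

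Called genes were spread over the genome. From 5.14% to 5.50% of tested genes were called on each of the 5 nuclear chromosomes. Runs of 3 adjacent tested genes called in the same direction occurred 3 times, as the purine permease relatives PUP7, AT4G18205 and PUP10 (higher), the SAUR genes AT4G38825, AT4G38840 and SAUR15 (higher), and AT5G41580, BTI3 and AT5G41670 (lower). AT4G18205 had 230, 189, 122 and 217 CPM in the substituted line, against 82.8, 86.2, 81.1 and 84.2 CPM in Col-0 (log2 fold change 1.18, edgeR adjusted p 0.00473). Among the 30 tested genes nearest to DXO1, 15 on each side, 3 were higher and 0 lower, where 3.18% of all tested genes were higher. They were HAT1 (log2 fold change 1.34), PYR1 and AT4G17670, and HAT1 and the genes of the runs were named after their values were seen. AT4G17670, a DUF581 protein only a few genes from DXO1, had 16.2, 29.2, 11.3 and 27.5 CPM in the substituted line, against 4.73, 3.78, 1.36 and 2.99 CPM in Col-0 (log2 fold change 2.62, SE 0.43, edgeR adjusted p 3.13e-04). It averaged 21.0 ± 8.55 CPM in the truncated substituted line, 21.6 ± 9.23 CPM in the truncated active line and 17.1 ± 5.10 CPM in dxo1-2, but 7.18 ± 0.505 CPM in the full-length active line, and any part of linkage to the dxo1-2 locus was not tested. Higher genes had a median exon length of 1609 bases and lower genes of 1726.5 bases, against 1734 for all tested genes.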

How the data were processed

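Each library came with a deposited file of whole-number counts over 37184 loci, which the authors had not normalized, as the values show. The submitters' processing notes name STAR 2.7.8a, DESeq2 and the build TAIR10. How reads were counted, with which annotation and strand setting, and whether identifiers of molecules were merged is not given in the sources used here, so intervals cover counting error only. Of the loci, 36899 matched the TAIR10.1 reference, which gave names, lengths and sequences. Groups came from the titles. Total counts ran from 1273473 to 2279619 in the substituted line and from 1449681 to 2285751 in Col-0.

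A single fit of all 24 libraries was made with edgeR 4.0.16 (R 4.3.3, quasi-likelihood test), using TMM factors and filterByExpr by group, with Benjamini-Hochberg adjustment over 13592 genes. For marker sums, exact permutation tests (two-sided) over libraries were used. Where a group held at most 3 counts, a ratio with its exact 95% interval replaces the fold change. Among 36 pairs of libraries of 1 group, 0 were identical (chi-square per degree of freedom at least 1.75).

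Named genes were the 8 highest and 8 lowest fold changes and the 6 smallest p in each direction, restricted to calls whose groups did not overlap and whose higher group averaged 20 counts or more. The 4 highest and 4 lowest against the active line, up to 4 per direction shared with each separate comparison, called list members and at most 4 others per list were added. The genes, lists and tests were chosen with earlier results of these data known. On simulated counts for the main comparison (13250 genes tested), 24.8% of genes changed by 1 and 79.5% of those changed by 2 log2 units were recovered, and 3.03% of calls were unchanged genes. The simulated counts were drawn independently for each gene, with the same spread in every group. They held no library that stood apart and no spread shared between genes. The 3.03% is therefore not an estimate of unchanged genes among the real calls. DESeq2 1.42.0 and the other settings are given in the closing section.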

Additional observations from a re-analysis of the deposited data

Results flagged for a closer look

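In 58 groups of 4 values checked for 1 library far from the rest (the 25 genes named by fold or smallest p against Col-0, DXO1, organelle shares and total counts, each in the substituted line and in Col-0), 5 stood out. Chance flags about 1 in 20 such groups. AT5G35935 had 1.42 CPM in replicate 1 of Col-0 and 0 in the other 3. AT1G64795 had 4.18 CPM in replicate 4 of Col-0, against 0.473 CPM or less in the other 3. WRKY54 had 95.3 CPM in replicate 2 of the substituted line, against 73.4 CPM or less in the others. PYR1 had 52.6 CPM in replicate 3 of that line, against 81.9 CPM or more in the others. The chloroplast share of counts was 5.23% in replicate 1 of Col-0, against 4.46% or less in the other 3.

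For 16 of these 25 genes, the difference between the substituted and the active line was not the same in the full-length and the truncated pair (edgeR interaction, adjusted over all tested genes), as for 196 of all 13592 tested genes (1.44%). Each value is the log2 difference in the full-length pair minus that in the truncated pair. Among higher genes it was 3.35 for PYL4 (adjusted p 1.85e-06), 2.86 for FLA9 (4.53e-06), 2.93 for AT4G21870 (0.00259), 2.55 for AT1G72416 (0.00148), 1.98 for PAR2 (0.0224), 1.39 for J11 (0.00462), 1.13 for PYR1 and 0.87 for WRKY54 (both 0.0454). Among lower genes it was -4.35 for AT4G28140 (2.73e-04), -3.88 for AT5G52050 (5.49e-04), -2.95 for ERF53 (0.00958), -1.96 for XTH31 (0.00488), -1.74 for RD28 (0.00734), -1.71 for CAD9 (3.35e-05), -1.39 for AT1G73390 (0.0204) and -1.12 for AT3G16670 (0.0203). The genes were chosen for extreme values in the same substituted libraries, so neither their count nor their direction is independent of that choice, and with 1 line per construct an effect of the substitutions and one of the line cannot be told apart.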

How the results depend on the processing

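The count of 728 genes stayed within 1.5 times under median-of-ratios size factors, DESeq2, both filters on low counts, a fit of only the groups compared, organelle genes left out and the length trend removed, at 586 to 1085. It was 2197 with the main axis of spread within groups as a covariate, an axis computed from the same libraries, and 419 to 944 when 1 library was left out. The share of calls that were higher, 59.3% at first, was 50.3% with that axis. DXO1 was not called in any setting that tested it, and the filter of at least 10 counts in every library left it out. The count against the full-length active line, 854, was 3960 with the axis, 1282 with the length trend removed and 421 to 2585 leaving out 1 library. For dxo1-2 against the full-length active line, 4153 became 7116 with the axis. Between the truncated lines, 287 became 3187 with the axis, 8 in a fit of only these groups and 101 to 846 leaving out 1 library. Same-numbered deviations of the substituted line and Col-0 correlated at -0.0943, 0.0682, 0.356 and 0.278. Substituted replicates 3 and 4 correlated best with the same-numbered Col-0 library, and replicates 1 and 2 with Col-0 replicate 4 (0.18 and 0.086). These values do not settle whether replicate numbers pair the libraries, and the main fit did not pair them. With the replicate number as a block, 844 genes were called against Col-0 and 1222 against the full-length active line. The same block gave 4624 for dxo1-2 against the full-length active line and 442 between the truncated lines. Of 106 genes followed against Col-0, 70 had the same outcome in every setting that tested them. Among these were SESA3 and PDF1.2b, which were not called in the main fit. A call was lost in some fit leaving out 1 library for 35 genes, and the direction reversed for 0. The causes of these shifts were not tested. Depth limits genes of low level: outside the lists, those averaging under 20 counts in both groups were not named by fold, and small folds were often missed in simulation.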
